A study of Mus musculus with 4 samples.

Results

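The 10 tubulin genes Tuba1a, Tuba1b, Tuba1c, Tuba4a, Tubb2a, Tubb2b, Tubb3, Tubb4b, Tubb5 and Tubg1 were examined in mouse retina. They were taken from the table by symbol, and all 10 were found among 18471 genes. Microtubules are polymers of alpha- and beta-tubulin dimers, and gamma-tubulin in ring complexes nucleates them. Mammals carry several genes for each subunit, whose proteins differ mainly in the acidic tail at the C terminus. In the retina microtubules fill the axons of ganglion cells, form the mitotic spindles of progenitors and build the axoneme, the core of every cilium, including the connecting cilium of photoreceptors. Tubb4b is the beta isotype known for its place in axonemes. Tuba1a, Tubb2a, Tubb2b and Tubb3 are counted here as neuronal isotypes, Tuba1b, Tuba1c, Tuba4a and Tubb5 as general ones, and Tubg1 as the centrosomal gamma-tubulin. The question was whether the axonemal isotype differed between genotypes in another way than the neuronal and general ones.

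RNA sequencing compared retinas of embryos at embryonic day 19. The labels give 2 wild-type libraries and 2 labelled Foxn3KO with the genotype Foxn3-/-, from the line C57BL/6NJ-Foxn3em1(IMPC)Bay/Mmnc, in which exon 3 is deleted; Foxn3 encodes a forkhead transcription factor. Each library came from the retina of a single genotyped embryo, and the study concerns the control of primary cilia by Foxn3.

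Total counts ranged from 22543531 to 29360129 per library. Foxn3 itself had 2421 and 2712 counts in the wild-type libraries and 4181 and 3219 in the libraries labelled Foxn3KO, so the targeted gene was higher there. Counts over the whole gene do not resolve exon 3, and each direction below rests on the labels. Wild-type replicate 1 stood apart: it held 83073 counts of Xist, the RNA of the inactive X chromosome, against 9 to 19 in the other 3 libraries. The mean chi-square a gene between replicates was 10.06 for wild-type and 1.89 for Foxn3KO. That mean includes Xist, whose 83073 against 17 counts in the wild-type pair raise it strongly. It therefore does not show how far the wild-type replicates differed beyond Xist, and the mean without Xist was not computed. The SD of FPKM was larger in wild-type for Tuba1a, Tubb2a, Tubb2b, Tubb3, Tubb4b (8.32 against 0.547) and Tubb5 (41.2 against 2.31). It was larger in Foxn3KO for Tuba1b, Tuba1c, Tuba4a and Tubg1. Results that rest on wild-type replicate 1 are therefore also given without it. In whole retinas a change in the number of cells of a type cannot be told apart from a change in RNA per cell.

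The isotypes are near copies of each other, so their sequences come before their values. The ends of the coding sequences of the beta isotypes are shown because they encode the tails by which the proteins are told apart, and because a read can be assigned to an isotype only where the letters differ. The last 60 coding bases, stop codon included, were read from GENCODE M21 transcripts. Capitals mark bases that differ from Tubb4b, or have no counterpart there, in an alignment of the whole coding sequences. Tubb2b is compared with Tubb2a instead. Bases that an isotype lacks are not shown, so the lines do not match position by position.
Tubb4b: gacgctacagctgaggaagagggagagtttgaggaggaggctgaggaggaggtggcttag
Tubb5: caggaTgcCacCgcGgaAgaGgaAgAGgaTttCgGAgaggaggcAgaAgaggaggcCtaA
Tubb3: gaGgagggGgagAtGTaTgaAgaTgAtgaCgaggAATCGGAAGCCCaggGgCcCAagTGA
Tubb2a: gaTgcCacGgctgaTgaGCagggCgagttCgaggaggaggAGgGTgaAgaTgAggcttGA
Tubb2b: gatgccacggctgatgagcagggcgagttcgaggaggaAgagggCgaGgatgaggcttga
In this stretch 17 bases were marked in Tubb5, 17 in Tubb2a and 29 in Tubb3. The coding sequence has 1353 bases in Tubb3, 1338 in Tubb4b and Tubb2a, and 1335 in Tubb5. The capitals of Tubb3 therefore include bases that Tubb4b lacks, and the bases that Tubb5 lacks are not counted. Tubb2b differed from Tubb2a at 3 bases. Over the whole coding sequence Tuba1a was 98.3% identical to Tuba1b and 97.1% to Tuba1c, and Tubb2a was 96.5% identical to Tubb2b. Tubb4b was 82.0% to 83.6% identical to the other beta isotypes.

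How much of each transcript could be read without doubt was measured with windows of 50 and 100 bases. For 1 coding transcript a gene, the share of windows also present in a transcript of any other gene was counted in the sense direction. Tubb3 shared no window of 50 bases and Tubb5 shared 0.115%. In Tubb4b 50.9% of the windows of 50 bases and 29.2% of those of 100 bases recurred elsewhere, mostly in the pseudogene Tubb4b-ps1, and none recurred in another of the 10 isotypes. Windows of 100 bases found in another of the isotypes made up 38.4% in Tuba1a, 52.3% in Tuba1b, 53.4% in Tuba1c, 35.9% in Tubb2a and 26.1% in Tubb2b. Values within these 2 sets of close paralogs are therefore uncertain, while those of Tubb3 and Tubb5 rest on sequence of their own. The deposited counts of Tubb4b-ps1 were 14 to 19 per library, against 8321 to 13061 for Tubb4b. Tuba4a overlaps Stk16 on the opposite strand, and Tubb4b overlaps Fam166a on the opposite strand, which had 4 to 12 counts. Tubb3 overlaps the annotated gene Gm20388 on the same strand, and Tuba1a and Tuba1b both overlap Gm49450 on the same strand. Tuba1b also overlaps Gm41396 on the opposite strand, which had 21 to 33 counts.

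**Figure D1:**
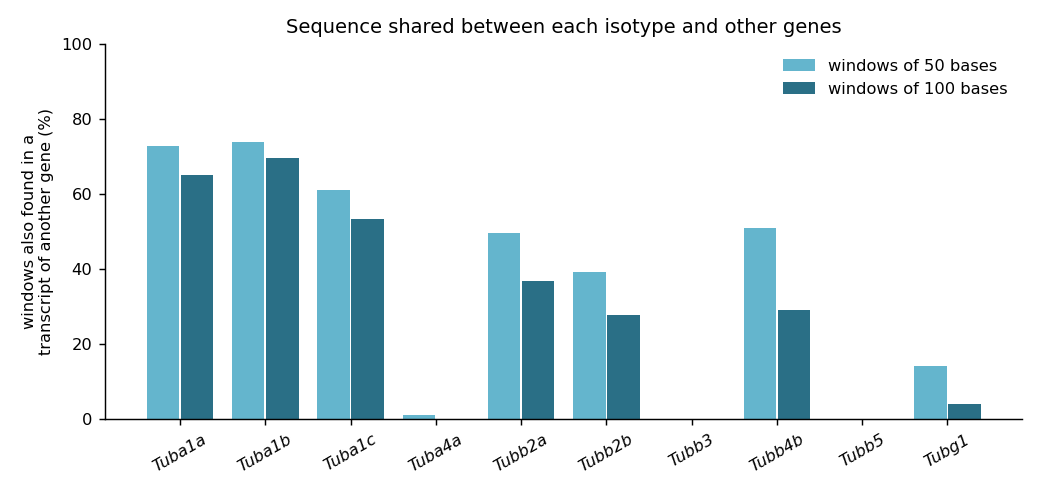
Share of sequence windows of each isotype that also occur in a transcript of another gene, in percent (vertical axis), for windows of 50 bases (light bars) and 100 bases (dark bars). The Tuba1 genes stand at 53.4% or more, while Tubb3 has none and Tubb5 at most 0.115%.

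Levels were compared between genes on the FPKM scale, which divides by gene length. The mean over the 4 libraries was 1061 FPKM for Tuba1a and 763 FPKM for Tubb5, the highest of the alpha and beta isotypes. Tubb2b (380 FPKM) and Tubb3 (371 FPKM) followed, then Tubb4b (190 FPKM), Tuba1b (184 FPKM) and Tubb2a (158 FPKM). Tubg1 stood at 35.4 FPKM, Tuba1c at 14.8 FPKM and Tuba4a at 0.723 FPKM. Tubb2b and Tubb3 had overlapping values within each group, so their order was not resolved. Tubb4b and Tuba1b exchanged places: the FPKM ratio of Tubb4b to Tuba1b was 0.881 and 0.948 in the wild-type libraries and 1.15 and 1.14 in the Foxn3KO libraries. Tubb4b exceeded Tubb2a in each of the 4 libraries, by ratios of 1.12 to 1.29.

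**Figure D2:**
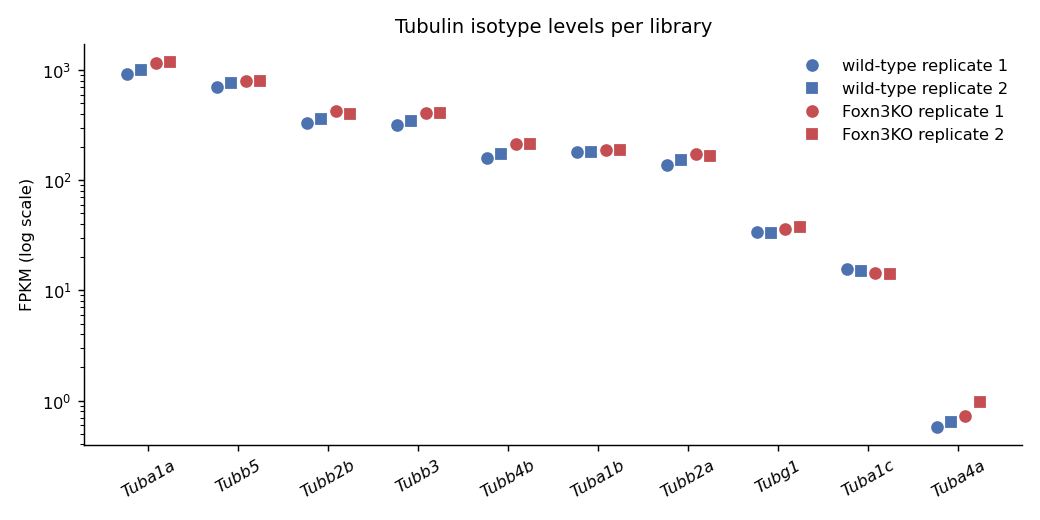
Deposited FPKM of the 10 isotypes (vertical axis, log scale) in each library, wild-type in blue and Foxn3KO in red, with replicate 1 as circles and replicate 2 as squares. Genes are ordered by their mean, from 1061 FPKM for Tuba1a to 0.723 FPKM for Tuba4a.

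The axonemal Tubb4b and all 4 neuronal isotypes were higher in the libraries labelled Foxn3KO, with rises between 1.17-fold and 1.29-fold. None of the 4 general isotypes passed the test. Tubb5 came close (edgeR adjusted p = 0.0525) and passed in 6 of 8 alternative settings with all 4 libraries. Tubg1 did not pass either, and no isotype was called lower. Thus 5 of 10 isotypes were called, all higher, where 21.9% of the 17300 tested genes were called in either direction and 12.3% higher. Abundant genes are called more readily: of genes averaging 50 CPM (counts scaled to library size) or more, 31.4% were called in either direction and 17.2% higher, and 5 of the 8 isotypes at that level were. The median log2 fold change was 0.24 over the isotypes and -0.0047 over all tested genes. Without wild-type replicate 1 the median over the isotypes was 0.177. The lower of both Foxn3KO values exceeded the higher of both wild-type values for 9 of 10 isotypes, which held for 30.2% of tested genes. Leaving out wild-type replicate 1 raised the count to 7 and leaving out Foxn3KO replicate 1 lowered it to 3. In those fits the group with a single library is assumed to vary like the other.

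Tubb4b, the isotype of ciliary axonemes, had the largest rise among the called members. It stood at 160 and 172 FPKM in the wild-type libraries and at 214 and 215 FPKM in the Foxn3KO libraries (166 ± 8.32 against 215 ± 0.547 FPKM, SD, n = 2 each). Both Foxn3KO libraries lay above both wild-type libraries, and wild-type replicate 1 was the lowest. The log2 fold change was 0.37 (SE 0.043, 95% interval 0.28 to 0.46), a 1.29-fold rise by edgeR's quasi-likelihood test with Benjamini-Hochberg adjustment (adjusted p = 4.85e-06). Leaving out wild-type replicate 1 gave 0.32, still past the threshold.

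The promoter of Tubb4b is shown because it belongs to the isotype with the largest called rise and the study asks about transcriptional control of cilia. It spans 250 bases before to 50 after the start of the gene in RefSeq, on the minus strand of build GRCm38.p6 at chr2:25224653-25224952. Capitals mark matches, on either strand, to the motifs searched: GTTGCC and the X-box palindrome for RFX factors, TGTTTAC for forkhead factors, GACGC for the alternative forkhead site, and CCAAT, which was added after the sequence had been seen.
Tubb4b promoter: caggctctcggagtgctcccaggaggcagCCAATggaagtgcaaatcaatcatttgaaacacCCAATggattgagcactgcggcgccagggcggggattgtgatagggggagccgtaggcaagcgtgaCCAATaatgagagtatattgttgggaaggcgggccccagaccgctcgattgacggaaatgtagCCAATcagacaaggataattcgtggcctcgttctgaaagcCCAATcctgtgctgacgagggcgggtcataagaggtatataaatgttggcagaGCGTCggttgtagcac
It held 5 matches to CCAAT and 1 to GACGC, none of which overlap. A promoter of the same length held at least 1 CCAAT in 37.4% of 32851 RefSeq promoters and at least 5 in 0.271%. GACGC occurred in 27.2%, TGTTTAC in 3.65%, GTTGCC in 12.5% and the X-box palindrome in 0.451% of them. The floor of 5 CCAAT matches was taken from the Tubb4b promoter itself, so the share of 0.271% is a description and not a test. Neither RFX motif nor TGTTTAC was among the letters of this window.
Tubb3 and Tuba1a, the neuronal isotypes with the next largest rises, are shown for comparison with the same marking, at chr8:123411303-123411602 on the plus strand and chr15:98953452-98953751 on the minus strand of the same build.
Tubb3 promoter: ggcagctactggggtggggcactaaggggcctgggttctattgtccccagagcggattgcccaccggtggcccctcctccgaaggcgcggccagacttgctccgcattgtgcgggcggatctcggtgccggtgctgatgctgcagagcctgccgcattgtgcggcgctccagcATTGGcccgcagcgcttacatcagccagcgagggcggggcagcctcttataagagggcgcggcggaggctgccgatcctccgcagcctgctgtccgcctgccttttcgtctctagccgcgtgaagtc
Tuba1a promoter: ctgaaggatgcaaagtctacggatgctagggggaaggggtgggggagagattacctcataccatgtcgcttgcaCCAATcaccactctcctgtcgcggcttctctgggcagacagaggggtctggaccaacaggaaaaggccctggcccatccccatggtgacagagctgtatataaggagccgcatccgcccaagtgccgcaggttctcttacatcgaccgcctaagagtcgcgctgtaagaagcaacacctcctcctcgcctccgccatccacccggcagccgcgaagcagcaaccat
Each held 1 match to CCAAT and none to the other motifs. Promoters were matched for 8 of the 10 isotypes. Over these 8, GTTGCC was found in 1 (Tuba1c), GACGC in 3 (Tuba1b, Tuba4a and Tubb4b) and TGTTTAC and the X-box palindrome in none. CCAAT was found in 5 of the 8, which include Tubb5 (2 matches) and Tuba1c (1 match), neither of which passed the test, and not in Tubb2a, which rose.

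Among the neuronal isotypes Tubb3, the beta-tubulin long used as a marker of neurons, stood at 318 and 344 FPKM in the wild-type libraries and at 412 and 412 FPKM in the Foxn3KO libraries. The groups did not overlap, and the Foxn3KO libraries differed from each other by less than 1 FPKM. Its log2 fold change was 0.31 (SE 0.043, edgeR adjusted p = 3.42e-05). Tuba1a, the main alpha-tubulin of young neurons, went from 918 and 995 FPKM to 1154 and 1178 FPKM, a log2 fold change of 0.28 (SE 0.044, edgeR adjusted p = 0.000119). As the most abundant isotype it rose by a fold close to that of Tubb3. Tubb2b, a beta-tubulin of migrating and differentiating neurons, stood at 333 and 360 FPKM against 423 and 403 FPKM, a log2 fold change of 0.25 (SE 0.045, edgeR adjusted p = 0.000485). Tubb2a, its neighbour on chromosome 13 and near copy, stood at 139 and 153 FPKM against 174 and 167 FPKM, a log2 fold change of 0.22 (SE 0.049, edgeR adjusted p = 0.00309). In these genes wild-type replicate 1 was the lowest library. Without it the log2 fold changes were 0.26 for Tubb3, 0.23 for Tuba1a, 0.20 for Tubb2b and 0.16 for Tubb2a, and all 4 stayed past the threshold. Without Foxn3KO replicate 1, Tubb2a (0.19, edgeR adjusted p = 0.0765) and Tubb2b (0.22, edgeR adjusted p = 0.0598) did not pass.

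Among the general isotypes Tubb5, the main beta-tubulin of dividing cells, lay at the threshold. It stood at 700.1 and 758 FPKM in the wild-type libraries and at 794 and 797 FPKM in the Foxn3KO libraries, which did not overlap. Its log2 fold change was 0.12 (SE 0.044, edgeR adjusted p = 0.0525). DESeq2 gave an adjusted p of 0.0413, and over 8 alternative settings with all 4 libraries the adjusted p ranged from 0.0127 to 0.1002. Leaving out either wild-type library brought Tubb5 past the threshold, at 0.07 without wild-type replicate 1 (edgeR adjusted p = 0.0126) and 0.18 without the other. Tuba1b, a widely expressed alpha-tubulin, stood at 181 and 181 FPKM against 186 and 188 FPKM, a log2 fold change of 0.04 with a 95% interval of -0.04 to 0.13 (edgeR adjusted p = 0.477). Tuba1c, a scarcer widely expressed copy, was the only isotype with a negative value: 15.5 and 15.1 FPKM against 14.4 and 13.96 FPKM, a log2 fold change of -0.11 (edgeR adjusted p = 0.249). Tuba4a was scarce, with 53 and 64 counts against 78 and 80. Its log2 fold change of 0.46 had a 95% interval of -0.02 to 0.93 (edgeR adjusted p = 0.169), so a change of the size seen in Tubb4b could not be resolved at this depth. Stk16, which it overlaps, had 2038 to 2542 counts per library.

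Tubg1, the gamma-tubulin of the centrosome, stood at 34.1 and 33.3 FPKM in the wild-type libraries and at 36.4 and 37.7 FPKM in the Foxn3KO libraries. The groups did not overlap. The log2 fold change was 0.14 (SE 0.051, 95% interval 0.03 to 0.24), and it did not pass after adjustment over all genes (edgeR adjusted p = 0.0642). With wild-type replicate 1 left out it passed, at 0.16 (edgeR adjusted p = 0.0151).

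**Figure D3:**
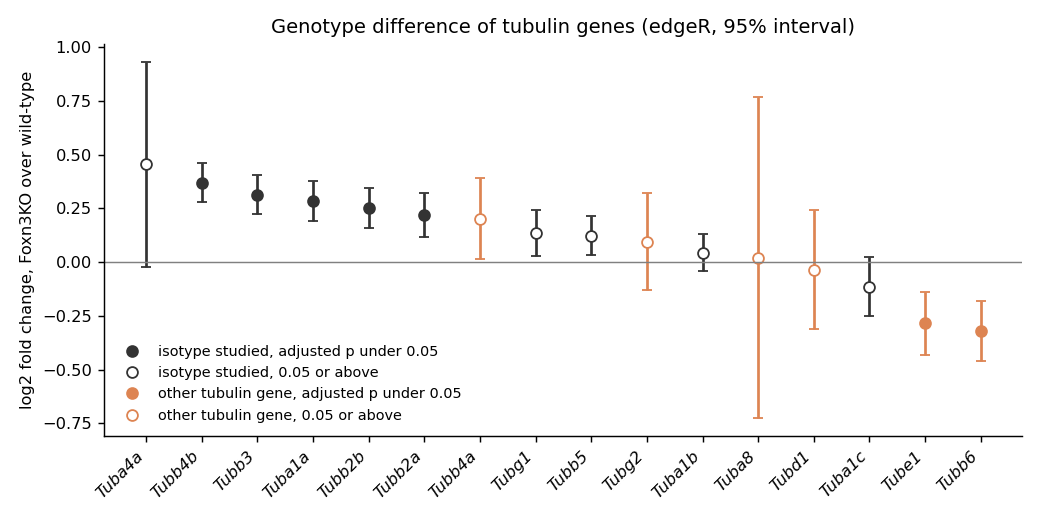
Log2 fold change of each tubulin gene, Foxn3KO over wild-type (vertical axis), with its 95% interval before adjustment, for the 10 isotypes in black and the 6 other tubulin genes in orange; filled points passed an edgeR adjusted p of 0.05. Tubb4b (0.37), Tubb3, Tuba1a, Tubb2b and Tubb2a are the filled points above 0, and Tube1 and Tubb6 those below it.

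Tubb4b was then set directly against each of the other isotypes. Its log2 fold change exceeded that of Tubb5 by 0.25 (SE 0.062, 95% interval 0.12 to 0.38). The FPKM ratio of Tubb4b to Tubb5 was 0.228 and 0.226 in the wild-type libraries and 0.2697 and 0.2696 in the Foxn3KO libraries, so it was higher in both Foxn3KO libraries by more than replicates differed. The difference was 0.33 against Tuba1b (95% interval 0.20 to 0.45), 0.48 against Tuba1c (0.32 to 0.65) and 0.23 against Tubg1 (0.09 to 0.37). Against the neuronal isotypes it was smaller. It was 0.15 against Tubb2a (0.01 to 0.29), 0.12 against Tubb2b (-0.01 to 0.25), 0.09 against Tuba1a (-0.04 to 0.22) and 0.06 against Tubb3 (-0.07 to 0.19). The last 3 intervals include 0, and differences of up to 0.25, 0.22 and 0.19 remain within them. The FPKM ratios within libraries nevertheless did not overlap between the groups for these 3 genes either. The ratio of Tubb4b to Tubb3 was 0.503 and 0.499 in the wild-type libraries and 0.5204 and 0.522 in the Foxn3KO libraries. To Tuba1a it was 0.174 and 0.173 against 0.186 and 0.182, and to Tubb2b 0.481 and 0.476 against 0.507 and 0.533. These ratios were higher in both Foxn3KO libraries, but the shifts were small and were not tested. The intervals did not resolve whether Tubb4b rose more than these 3 isotypes. Wild-type replicate 1 was the lowest library for Tubb4b and for these 3 genes. The ratios remove such a shared deviation, while the intervals do not. Against Tuba4a the difference of -0.09 had an interval of -0.57 to 0.40. These 9 intervals were not adjusted for their number, and they treat the genes of a pair as independent although both were measured in the same libraries. Leaving out each library in turn gave differences of 0.24 to 0.25 from Tubb5, 0.05 to 0.06 from Tubb3 and 0.17 to 0.30 from Tubg1. The SE of the difference from Tubb5 rose from 0.062 to 0.125 without Foxn3KO replicate 1 and to 0.127 without Foxn3KO replicate 2, so that the difference was then under 2 SE.

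**Figure D4:**
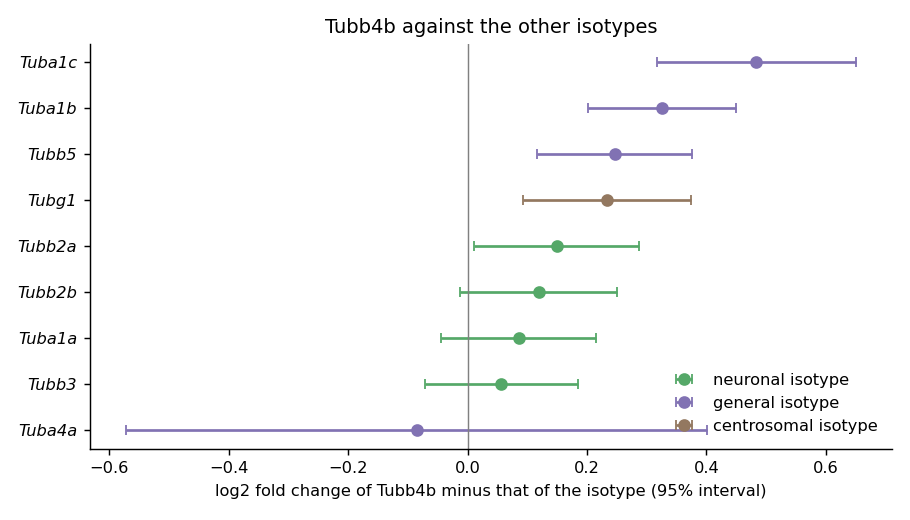
Log2 fold change of Tubb4b minus that of each other isotype (horizontal axis), with 95% intervals, coloured by the role of the other isotype. The intervals for Tubb5 (0.12 to 0.38), Tubg1, Tuba1b and Tuba1c lie right of 0, while those for Tubb3, Tuba1a and Tubb2b span it.

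The make-up of the tubulin pools was read as shares of summed FPKM, which do not depend on library scaling. Tubb4b made up 9.21% and 9.03% of the FPKM of the 7 beta-tubulin genes in the table in the wild-type libraries, and 10.1% and 10.2% in the Foxn3KO libraries. The share of Tubb3 went from 18.3% and 18.1% to 19.4% and 19.6%. Tubb5 held the largest beta share, 40.3% and 39.9% against 37.3% and 37.9%. In the alpha pool Tuba1a went from 82.2% and 83.5% to 85.1% and 85.3%, and Tuba1b from 16.3% and 15.2% to 13.7% and 13.6%. For each of these 5 shares the groups did not overlap (exact permutation test, two-sided, p = 0.333, the smallest that 2 against 2 libraries allow). The small shares of Tubb6 and Tuba1c did not overlap either and were lower in the Foxn3KO libraries. Those of Tubb2a (7.99% and 8.05% against 8.19% and 7.91%) and Tubb2b (19.15% and 18.94% against 19.88% and 19.14%) overlapped between the groups. So did those of Tubb4a, Tuba4a and Tuba8. The summed FPKM was 1737 and 1902 for the beta genes in the wild-type libraries and 2127 and 2106 in the Foxn3KO libraries, a ratio of the means of 1.16. For the 5 alpha genes the sums were 1116 and 1192 against 1356 and 1382 FPKM, a ratio of 1.19. Wild-type replicate 1 had the lowest sum in both pools, so both ratios rest in part on it.

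Because reads of near-identical isotypes may be divided between them, sums that division within each set cannot change were also fitted. Reads shared with genes outside the sets, or discarded, could still change these sums. In Tuba1a 65.1% of the windows of 100 bases recurred in another gene, against 38.4% in another isotype. The summed counts of Tuba1a, Tuba1b and Tuba1c had a log2 fold change of 0.24 (SE 0.043), between that of Tuba1a (0.28) and those of the other copies. The summed counts of Tubb2a and Tubb2b had a log2 fold change of 0.24 (SE 0.045).

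Of 10 further tubulin genes listed, 6 were in the table, and 2 of the 6 fell and none rose, against 9.66% of all tested genes called lower. Tubb6, a beta-tubulin of non-neural tissues, stood at 15.3 and 15.5 FPKM in the wild-type libraries and at 12.0 and 12.6 FPKM in the Foxn3KO libraries, a log2 fold change of -0.32 (edgeR adjusted p = 0.00182). Tube1, the epsilon-tubulin of centriole assembly, stood at 4.09 and 4.01 FPKM against 3.30 and 3.36 FPKM, a log2 fold change of -0.28 (edgeR adjusted p = 0.00673), and did not pass without Foxn3KO replicate 1 (edgeR adjusted p = 0.0714). In both genes the Foxn3KO libraries lay below the wild-type libraries. Tubb4a, a beta-tubulin of neurons and myelinating glia, was set by 1 library: it stood at 72.3 and 99.4 FPKM in the wild-type libraries and at 97.9 and 99.8 FPKM in the Foxn3KO libraries. Its log2 fold change of 0.20 (edgeR adjusted p = 0.121) fell to -0.01 when wild-type replicate 1 was left out, and rose to 0.45 and passed when wild-type replicate 2 was. Tubg2 (0.10), Tubd1 (-0.03) and Tuba8 (0.02) did not pass. Tuba3a, Tuba3b, Tubal3 and Tubb1 were not analysed here.

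Genes that act on tubulin were read from 4 further lists, whose counts stand beside 12.3% of all tested genes called higher and 9.66% called lower. Tubulin is folded by the chaperonin CCT and by the tubulin cofactors. In that list 6 of 24 genes rose and 1 fell, with a median log2 fold change of 0.09; of all genes averaging 50 CPM or more, as 18 of these 24 did, 17.2% were called higher. The largest rises were those of the cofactor Tbcb (0.20) and the CCT subunits Cct3 (0.20) and Cct7 (0.17), and the cofactor Tbce fell by 0.18. Cct3, Cct7 and Tbce lost their calls without either Foxn3KO library, and Tbcb without Foxn3KO replicate 1 or wild-type replicate 2. Tbcb (adjusted p = 0.0696) and Tbce (adjusted p = 0.111) did not pass in DESeq2. When wild-type replicate 1 was left out, 10 genes of this list rose and 1 fell.

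Of the genes of the gamma-tubulin ring complex, its recruiters and augmin, 1 of 19 rose and 6 fell, with a median of -0.10, beside 12.3% and 9.66% of all tested genes. At 50 CPM or more, the level of 10 of these 19, 31.4% of genes were called in either direction and 17.2% higher. Nedd1, which ties the ring complex to centrosomes, fell by 0.26, Tubgcp4, a ring subunit, by 0.25 and Haus2, an augmin subunit, by 0.22, while the centrosomal scaffold Akap9 rose by 0.20. Haus2 did not pass in DESeq2 (adjusted p = 0.0877) and without either Foxn3KO library, Nedd1 not without Foxn3KO replicate 2 (edgeR adjusted p = 0.0557) and Akap9 not without Foxn3KO replicate 1 (edgeR adjusted p = 0.154). The counts without wild-type replicate 1 were 2 higher and 5 lower.

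Among enzymes that modify tubulin, many of them on its C-terminal tails, 11 of 26 tested genes rose and 1 fell, with a median of 0.17, beside the same 12.3% and 9.66%. Ttll9, of the tyrosine ligase-like family that adds amino acids to tubulin, went from 0.438 ± 0.05 to 5.81 ± 0.297 FPKM (SD, n = 2 each), which is 3.72 on the log2 scale (edgeR adjusted p = 8.29e-13). Agbl4, a carboxypeptidase that trims glutamates, rose by 2.08 and Ttll3, a glycylase of ciliary tubulin, by 1.95 on the log2 scale, from 0.194 and 2.16 FPKM. Agtpbp1, another deglutamylase, fell by 0.18 and did not pass in DESeq2 (adjusted p = 0.0524) or without either Foxn3KO library. In the fit without wild-type replicate 1, 12 rose and 2 fell.

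In a list of microtubule-binding proteins, not all of them particular to neurons, 13 of 24 rose and 2 fell, with a median of 0.14. Of these 24 genes 23 averaged 50 CPM or more, a level at which 17.2% of all genes were called higher. The largest rises were those of Tppp3 (1.52), a tubulin polymerization promoting protein, Map9 (0.90), a protein of spindles and axonemes, and Map1a (0.86), which binds dendritic and axonal microtubules. Tppp3 went from 23.1 ± 0.418 to 66.1 ± 1.76 FPKM (SD, n = 2 each). Map7 fell by 0.19 and Dclk2 by 0.17, and both lost their calls without either Foxn3KO library. Without wild-type replicate 1 the median of this list was 0.07, with 12 genes that rose and 3 that fell. These lists were chosen with earlier results of these data known.

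**Figure D5:**
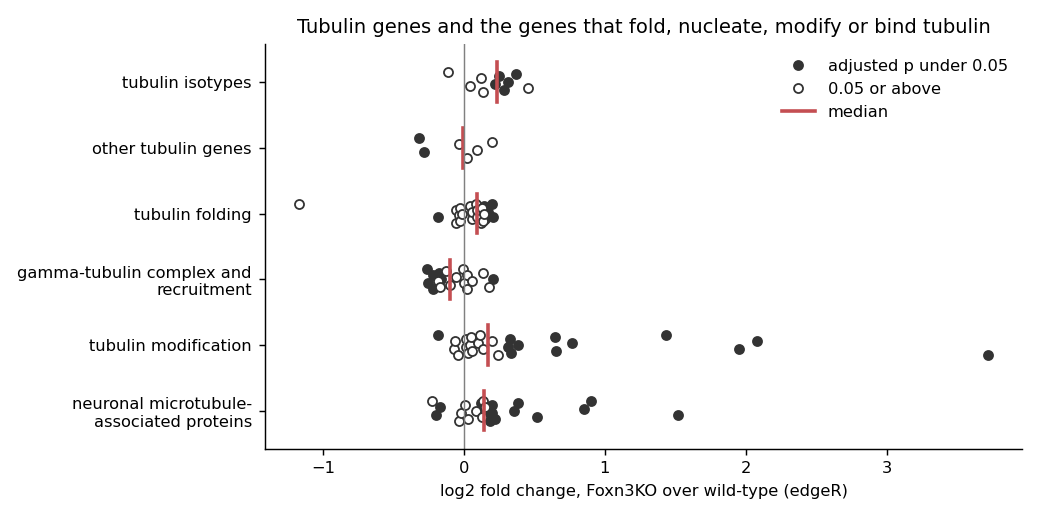
Log2 fold change, Foxn3KO over wild-type (horizontal axis), of each gene of the isotypes and of 5 lists; filled points passed an edgeR adjusted p of 0.05, and red lines mark medians. The isotypes lie within 0.46 of 0, while Ttll9 reaches 3.72 among the modifying enzymes.

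The genes whose pattern over the 4 libraries lay nearest to that of Tubb4b were found among 10836 genes averaging 10 CPM or more, by the Euclidean distance of centred log2 CPM. They were Pitpnm1, a phosphatidylinositol transfer protein (distance 0.00779), Arf3, a small GTPase of the Golgi (0.0116), Cry2, a clock repressor (0.0123), Actb, cytoplasmic beta-actin (0.0142), and Sox9, a transcription factor of progenitors and glia (0.0207). These distances were smaller than the SEs of the genes' log2 fold changes (0.043 to 0.065). Which genes lay nearest, and in what order, was therefore not resolved. Actb stood at 374 and 404 FPKM in the wild-type libraries and at 497 and 503 FPKM in the Foxn3KO libraries. Among the isotypes Tubb3 (0.0571) and Tuba1a (0.0879) were nearest to Tubb4b and Tuba1c (0.496) was farthest.

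Markers of the cells that could carry these isotypes are given beside them, and their counts are to be read against 12.3% of tested genes called higher (17.2% at 50 CPM or more) and 9.66% called lower. At 50 CPM or more, the level of all 13 progenitor markers, 31.4% of genes were called in either direction. Of 16 retinal ganglion cell markers 3 rose and 1 fell, and their summed level was 790 and 831 FPKM in the wild-type libraries and 851 and 844 FPKM in the Foxn3KO libraries. Gap43, a protein of growing axons, rose by 0.15 and Elavl4, an RNA-binding protein of neurons, by 0.21, while Isl1, a transcription factor of ganglion cells, fell by 0.23. Of 13 progenitor markers 1 rose and 4 fell, with sums of 1648 and 1699 against 1545 and 1548 FPKM. Ccnd1 alone supplied 749 and 785 FPKM of the wild-type sums and 678 and 674 FPKM of the Foxn3KO sums. Of 10 photoreceptor precursor markers 4 rose and none fell, with sums of 453 and 444 against 483 and 481 FPKM. Of 10 amacrine and horizontal cell markers none rose and 4 fell, with sums of 126 and 134 against 132 and 129 FPKM. Of 8 multiciliated cell markers 4 were tested and 3 rose, among them the ciliogenesis regulator Foxj1 (4.45) and Ccno (3.14), with sums of 54.0 and 54.8 against 122 and 121 FPKM. Myb, the tested marker that did not rise, supplied 50.1 and 51.0 FPKM of the wild-type sums and 49.2 and 49.8 FPKM of the Foxn3KO sums. Foxj1 went from 2.92 and 3.16 FPKM to 67.3 and 66.5 FPKM. Gmnc, Mcidas and Ccdc78, which define such cells, were not analysed here. Of 6 choroid plexus markers 4 were tested, of which 2 rose and 2 fell, with sums of 4.96 to 6.54 FPKM in the wild-type libraries and 5.87 and 5.92 in the Foxn3KO libraries. Of 10 lens markers 8 were tested and 7 rose, with sums of 2.55 and 35.5 against 147 and 146 FPKM. The part of these cells in the tubulin differences was not tested. Without wild-type replicate 1, 2 ganglion cell markers rose and 3 fell, and 2 progenitor markers rose and 7 fell.

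The same 5 isotypes had an adjusted p under 0.05 in the authors' deposited table, and so did Tubb5. The authors' deposited table gives Tubb4b a log2 fold change of 0.36 (adjusted p = 5.35e-12), Tubb3 0.31 (adjusted p = 2.44e-09) and Tubb5 0.13 (adjusted p = 0.0413). By the authors' deposited values, 10.1% of genes with an adjusted p were called higher.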

How the data were processed

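Total RNA from retinas of single embryos at embryonic day 19 was sequenced in 2 wild-type and 2 Foxn3KO libraries made with a strand-specific kit, per the labels' protocols. The authors deposited read counts as whole numbers, by gene and library. Per the file headers the same table holds FPKM per library, deposited by the authors. Per the file headers it also holds the authors' mean signal, log2 fold change and p-values. Build mm39 and DESeq2 are named in the submitters' processing notes. The aligner, the annotation, the treatment of reads that match several isotypes, the use of strand and of molecular identifiers are not given in the sources used here.

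A repeated identifier was dropped, which left 18471 genes, and filterByExpr kept 17300. After TMM scaling, the quasi-likelihood test of edgeR 4.0.16 (R 4.3.3) was run two-sided with genotype as the only term. P-values were adjusted by Benjamini-Hochberg over all tested genes, with a threshold of 0.05. The standard error is the log2 fold change over the root of F, and that of a difference between isotypes is the root of the summed squares. The procedure was run on counts simulated from a model fitted to these data, which cannot show how it performs when a library stands apart. Alternatives were RLE and total count scaling, no filter, a floor of 10 counts throughout, limma-voom (limma 3.58.1), DESeq2 1.42.0, the earlier edgeR fit, the replicate number as a block, and leaving out each library. The labels name single embryos but no litters or preparation days.

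The members and lists were chosen with earlier results of these data known. Named were all isotypes and other tubulin genes, Foxn3, the 3 called genes with the largest change per direction of each list outside the markers, and the 5 genes nearest to Tubb4b. Marker genes named are examples. Transcripts were taken from GENCODE M21 and aligned with Biopython 1.88. Promoters came from RefSeq tables of GRCm38.p6, a build other than that of the counts. The CCAAT motif and the list counts without wild-type replicate 1 were added after the data were seen. Figures were drawn with matplotlib 3.10.9.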

Additional observations from a re-analysis of the deposited data

How the results depend on the processing

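With all 4 libraries kept, the count of isotypes called was 5 or 6 under each of 8 alternatives, the sixth being Tubb5. Tubb4b had a log2 fold change of 0.35 to 0.37 there and stayed past the threshold under each, as it did when each library was left out (0.323 to 0.421). DESeq2 called 2437 genes over the whole table against 3795 by edgeR; the cause was not tested. Leaving out each library in turn gave 2323 to 5067 called genes, 3 to 7 called isotypes, a difference between Tubb4b and Tubb5 of 0.239 to 0.252, and a difference in the Tubb4b share of beta-tubulin of 0.933 to 1.115 percentage points against 1.022 in all libraries. As a share of counts in place of FPKM it was 0.9465. Total count scaling moved the share of higher calls, with 1916 of 3976 calls higher against 2123 of 3795, and the median log2 fold change of all genes to -0.0251.

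The correlation of deviations between same-numbered libraries was -0.00825 over 17300 genes and 0.208 over the 10 isotypes, and the labels name no shared litter or day, so the samples were taken to share only a number. The replicate block gave 4222 called genes, which include 3792 of the 3795, and 6 called isotypes. Tubb4a passed with the block (0.22). Signs changed for values near 0 or set by 1 library. Tuba8 was -0.00800 in DESeq2, -0.0346 with the replicate block, and ranged from -0.469 to 0.719 when a library was left out, with -0.248 without Foxn3KO replicate 1. Over the same omissions Tubb4a ranged from -0.00801 to 0.448, Tubd1 from -0.106 to 0.0343 and the difference between Tubb4b and Tuba4a from -0.293 to 0.116. Depth limits Tuba4a and Tuba8, which had at most 80 counts in a library.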
